A study of Mus musculus with 2 samples.

Results

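The 39 genes described here are markers of progress through the cell division cycle, taken as the rows of the deposited feature lists whose symbol was in the set, out of 32286 features in each library. All 39 symbols were found, each once. They comprise 10 genes of S phase (Pcna, Mcm2 to Mcm7, Tyms, Rrm1 and Rrm2), 22 genes of G2 and mitosis (Mki67, Top2a, Ccnb1, Ccnb2, Ccna2, Cdk1, Cdc20, Birc5, Ube2c, Tpx2, Cenpf, Cenpa, Cenpe, Hmmr, Cdkn3, Aurka, Aurkb, Bub1, Plk1, Kif11, Nusap1 and Prc1), 4 genes of G1 and the G1/S transition (Ccnd1, Cdk4, Ccne1 and Ccne2) and 3 genes used beyond the cycle as well (Stmn1, Tuba1b and Hmgb2). The study sorted viable CD45+ RFP+ cells, the leukocytes derived from transplanted marrow, from left ventricles after TAC (transverse aortic constriction, a surgical pressure overload of the heart). One single-cell library was made from recipients of control marrow and one from recipients of LOY marrow, whose genotype label stands for loss of the Y chromosome. Each library pooled cells of 3 mice after the sort, and all mice had both the transplant and TAC. The sources used here do not give strain, age, time after surgery or the way Y loss was made.

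With 1 library per group there is no test between control and LOY marrow, and every interval below covers counting error only, not differences between mice. The control library held 7276 barcodes and 42640861 UMIs (unique molecular identifiers, each standing for 1 captured RNA molecule), and the LOY library 5475 barcodes and 18710715 UMIs. After filters 6577 and 5177 cells were kept, with medians of 5069 and 3006 UMIs per cell. The pan-leukocyte gene Ptprc had a UMI in 84.4% and 73.9% of kept cells, whereas the fibroblast gene Col1a1 had one in 0.335% and 0.386%. The 4 Y-linked genes Ddx3y, Eif2s3y, Kdm5d and Uty summed to 124 CPM (counts per 1000000 UMIs of the cells named) in the control library and 14.3 CPM with LOY marrow, with a UMI in 45.6% and 3.84% of kept cells. The libraries shared 31 barcodes, 18 of them among kept cells. Without those 18 the share of macrophage-like cells with several G2/M genes was 2.15% in the control and 7.53% with LOY marrow.

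A dividing cell first commits to replication in G1, where D-type cyclins with Cdk4 inactivate the retinoblastoma protein and release E2F factors. E2F factors switch on the genes of S phase, such as the Mcm helicase that unwinds DNA, the sliding clamp Pcna, and the enzymes that supply deoxynucleotides. G2/M genes follow later, under the control of the DREAM, B-Myb and FoxM1 complexes, and encode the cyclins, kinases, motors and centromere proteins of mitosis. In the heart, macrophages can renew by local division as well as from blood monocytes, and neutrophils are postmitotic cells that left the cycle in the marrow. Levels are UMIs of 3′ transcript ends, and the comparisons below are of the same gene between cells.

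The promoter windows of the 2 S-phase and 2 G2/M genes with the most UMIs are shown because the phases differ in the motifs that stand there. RefSeq windows (GRCm38.p6) ran from 250 bases before to 50 bases after the annotated start, 5′ to 3′ on the gene's strand. Capitals mark E2F motifs (TTTCCCGC, TTTGCCGC, TTTCGCGC or TTTGGCGC), CHR elements (the cell cycle genes homology region, TTTGAA or TTCGAA) and CCAAT boxes, on either strand. The windows lie at chr2:132253131-132253430, chr1:20820263-20820562, chr7:135716330-135716629 and chr11:99024140-99024439, all on the minus strand; the gene bodies (mm10, GENCODE M21) are chr2:132249162-132253314, chr1:20802968-20820312, chr7:135689784-135716361 and chr11:98992943-99024189.
Pcna: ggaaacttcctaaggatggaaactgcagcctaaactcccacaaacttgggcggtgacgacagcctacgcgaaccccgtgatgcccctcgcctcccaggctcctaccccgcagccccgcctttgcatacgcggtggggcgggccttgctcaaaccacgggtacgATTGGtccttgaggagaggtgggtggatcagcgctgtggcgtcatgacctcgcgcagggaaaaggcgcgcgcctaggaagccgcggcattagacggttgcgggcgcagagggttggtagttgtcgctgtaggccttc
Mcm3: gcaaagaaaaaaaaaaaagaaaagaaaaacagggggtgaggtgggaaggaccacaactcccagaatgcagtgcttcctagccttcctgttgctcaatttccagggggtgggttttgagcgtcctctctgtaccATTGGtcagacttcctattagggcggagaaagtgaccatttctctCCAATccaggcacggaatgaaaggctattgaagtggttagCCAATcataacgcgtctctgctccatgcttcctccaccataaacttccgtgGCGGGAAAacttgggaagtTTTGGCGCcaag
Mki67: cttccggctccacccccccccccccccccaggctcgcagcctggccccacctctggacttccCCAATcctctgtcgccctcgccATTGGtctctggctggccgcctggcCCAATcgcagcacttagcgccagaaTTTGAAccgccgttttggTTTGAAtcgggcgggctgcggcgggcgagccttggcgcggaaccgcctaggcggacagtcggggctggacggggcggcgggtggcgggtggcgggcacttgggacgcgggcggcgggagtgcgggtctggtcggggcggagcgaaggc
Top2a: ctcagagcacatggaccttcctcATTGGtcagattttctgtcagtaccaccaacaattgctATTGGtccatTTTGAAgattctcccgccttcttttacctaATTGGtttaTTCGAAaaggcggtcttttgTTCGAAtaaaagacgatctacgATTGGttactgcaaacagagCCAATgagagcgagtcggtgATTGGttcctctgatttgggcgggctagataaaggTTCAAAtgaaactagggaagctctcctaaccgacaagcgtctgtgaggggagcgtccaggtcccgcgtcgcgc

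The Mcm3 window holds 2 E2F motifs and no CHR element, whereas the Mki67 window holds 2 CHR elements and the Top2a window 4, with no E2F motif in either. The Pcna window holds 1 CCAAT box and neither of the other motifs. Its RefSeq start lies inside the gene body given above, so it covers fewer bases before that body than the Mcm3 and Top2a windows do. Of the members with an entry, 4 of 9 S-phase genes (Mcm3, Mcm5, Mcm6 and Mcm7) and 1 of 19 G2/M genes (Cdk1) had an E2F motif, against 2.27% of all 32851 windows. CHR elements stood in 15 of 19 G2/M genes and in 2 of 9 S-phase genes (Mcm2 and Mcm7), against 19.2% of all windows. CCAAT boxes were found in 17 of 19 and 8 of 9 genes, against 37.4% of windows. A gene was counted when any of its windows held the motif, and Mcm7 and Prc1 have 2 windows each. A CHR element together with a CCAAT box occurred in 15 of 19 G2/M genes and in 2 of 9 S-phase genes, against 7.53% of all windows. A match of letters is not a bound site, and no binding was measured here.

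Macrophage-like cells were the largest class, 4324 cells with control and 3334 with LOY marrow. In them the G2/M genes summed to 355 CPM (9705 UMIs) with control marrow and 964 CPM (11574 UMIs) with LOY marrow, 2.72-fold higher (95% counting interval 2.65 to 2.79). The S-phase genes summed to 294.5 CPM and 508 CPM, 1.73-fold higher (1.67 to 1.78). S-phase UMIs per G2/M UMI were thus 0.831 in the control and 0.527 with LOY marrow. Most of the class lay in different clusters in the 2 libraries, led by H2-Eb1, Cd209f and Cxcl1 (1310, 1218 and 925 cells) with control and by Tmem119, Ifit2 and Lyve1 (1307, 689 and 607 cells) with LOY marrow. A cluster led by Hist1h1b, Top2a and Mki67, with 115 control and 329 LOY cells, belonged to the class, and the part of these differences in makeup in the sums was not tested.

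**Figure D1:**
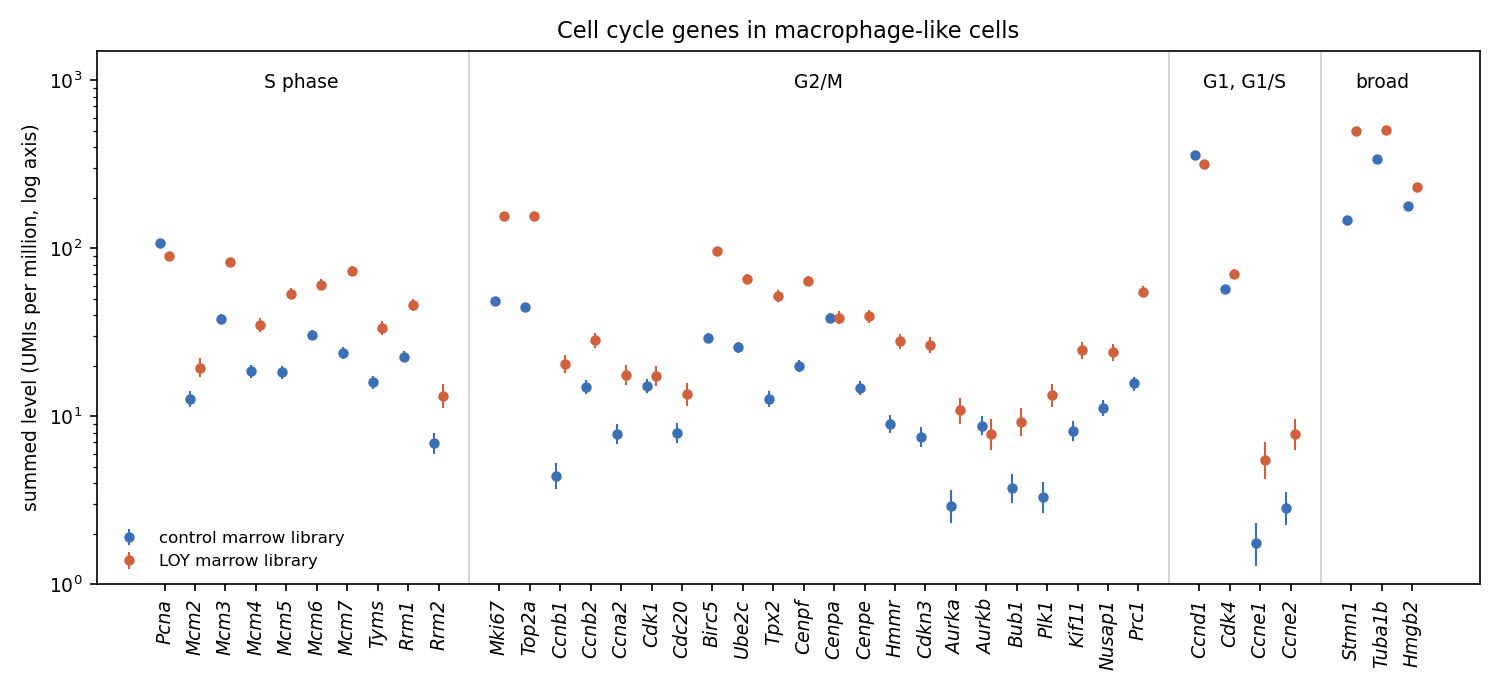
Summed level of each of the 39 genes in macrophage-like cells (CPM, log axis) in the control marrow library (blue) and the LOY marrow library (orange); bars are exact 95% Poisson intervals. Mki67 and Top2a stand above 150 CPM with LOY marrow and below 50 with control marrow, while Pcna, Cenpa, Cdk1 and Aurkb lie close together.

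Among the S-phase genes, 9 of 10 had a LOY-to-control ratio whose interval lay above 1. The 6 Mcm genes, subunits of the replicative helicase, ran from 12.6 CPM (Mcm2) to 38.1 CPM (Mcm3) in the control and from 19.5 CPM (Mcm2) to 82.8 CPM (Mcm3) with LOY marrow. Mcm7 had the highest ratio, with 23.9 CPM against 73.4 CPM (3.08-fold, 2.78 to 3.41). Mcm5 followed with 18.3 CPM against 53.7 CPM (2.94-fold, 2.61 to 3.31). The nucleotide enzymes Tyms (15.9 and 33.7 CPM), Rrm1 (22.7 and 46.2 CPM) and Rrm2 (6.91 and 13.3 CPM) each had a ratio above that of the S-phase sum. Pcna was the exception, at 107 CPM in the control and 90.1 CPM with LOY marrow (0.841-fold, 0.783 to 0.902). Its UMIs, 2932 and 1081, were the most of any S-phase gene.

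Among the 22 G2/M genes, 19 had a ratio above 1 beyond counting error and 3 had an interval that spanned 1. The share of all genes whose interval lies off 1 is not given here. Neither this count nor the 9 of 10 S-phase genes can therefore be set against a background. Calls past 1.5-fold are set beside all genes below. The proliferation antigen Mki67 was at 48.3 CPM and 155 CPM (3.20-fold, 2.98 to 3.44). Top2a, the topoisomerase that untangles sister chromatids, was at 44.5 CPM and 156 CPM (3.50-fold, 3.26 to 3.77). Together they gave 2541 of the 9705 and 3730 of the 11574 G2/M UMIs. Birc5, a subunit of the chromosomal passenger complex, was at 29.3 CPM and 96.2 CPM. The ubiquitin-conjugating enzyme Ube2c, a partner of the anaphase-promoting complex, was at 25.7 CPM and 65.8 CPM.

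The highest G2/M ratio was that of cyclin B1, the activator of the mitotic kinase, with Ccnb1 at 4.42 CPM and 20.5 CPM (4.64-fold, 3.71 to 5.81). Tpx2, which builds the spindle and activates Aurora A, was at 12.7 CPM and 52.2 CPM (4.11-fold). Plk1, the polo-like kinase, was at 3.29 CPM and 13.4 CPM (4.08-fold). Cyclin B2 and cyclin A2 had smaller ratios, with Ccnb2 at 15.0 CPM and 28.3 CPM and Ccna2 at 7.86 CPM and 17.7 CPM. Among the motors and spindle proteins, Kif11 was at 8.19 CPM and 24.7 CPM, Prc1 at 15.7 CPM and 55.2 CPM, Nusap1 at 11.3 CPM and 24.0 CPM, and Hmmr at 8.99 CPM and 27.9 CPM. The kinetochore genes Cenpf (20.0 and 63.9 CPM) and Cenpe (14.7 and 39.5 CPM) and the checkpoint kinase gene Bub1 (3.73 and 9.25 CPM) were higher with LOY marrow too. So were Aurka (2.92 and 10.8 CPM), Cdkn3 (7.53 and 26.6 CPM) and Cdc20 (7.97 and 13.6 CPM).

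The 3 G2/M genes without a difference beyond counting error were Cenpa, Cdk1 and Aurkb. Cenpa, the histone variant that marks centromeres, was at 38.7 CPM in both libraries (1.002-fold, 0.897 to 1.12). Cdk1, the mitotic kinase, was at 15.1 CPM and 17.4 CPM (1.15-fold, 0.970 to 1.36). Aurkb, the kinase of the passenger complex, was at 8.81 CPM and 7.83 CPM (0.889-fold, 0.693 to 1.13). The level of its complex partner Birc5 was more than 3-fold higher in the same cells.

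Of the G1 genes, cyclin D1 had the most UMIs and was slightly lower with LOY marrow. Ccnd1 was at 361 CPM with control and 319 CPM with LOY marrow (0.884-fold, 0.851 to 0.918). Its kinase partner Cdk4 was at 57.0 CPM and 70.1 CPM (1.23-fold). The E-type cyclins, which start replication, were low but higher with LOY marrow, with Ccne1 at 1.75 and 5.50 CPM and Ccne2 at 2.85 and 7.83 CPM. Of the genes used beyond the cycle, the microtubule destabiliser Stmn1 was at 147 and 502 CPM (3.42-fold), the tubulin Tuba1b at 340 and 505 CPM (1.49-fold) and the chromatin protein Hmgb2 at 179 and 232 CPM (1.30-fold). Tuba1b has near-identical paralogs, Tuba1a and Tuba1c, so its counts are uncertain.

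On the scale log2((LOY CPM + 10)/(control CPM + 10)), with genes at 10 CPM or more in either library, the median of the 10 S-phase genes was 0.77 and that of the 20 measured G2/M genes 0.999, beside −0.01 over all 7838 genes measured in macrophage-like cells. On that scale 7 of 10 S-phase genes and 17 of 20 measured G2/M genes were over 1.5-fold higher with LOY marrow, and none of them was over 1.5-fold lower. Over all genes measured, the shares past 1.5-fold were 7.25% (higher) and 7.8% (lower). Bub1 and Aurkb were under the 10 CPM minimum in both libraries.

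Genes of the same phases outside the 39 were looked at next. Over all genes measured, 7.25% were over 1.5-fold higher and 7.8% lower, with a median of −0.01. Of 36 other S-phase genes 28 were measured, and 14 were over 1.5-fold higher and none lower, with a median of 0.58. Lig1, the ligase that joins Okazaki fragments, was at 34.2 and 104 CPM and Clspn, a replication fork protein, at 8.77 and 33.8 CPM. Near the low end stood the histone mRNA binding gene Slbp (54.0 and 54.4 CPM). Of 45 other G2/M genes 29 were measured, 14 over 1.5-fold higher and none lower, with a median of 0.57. The passenger complex gene Cdca8 (17.9 and 62.3 CPM) and the tubulin gene Tubb4b (56.9 and 163 CPM) were highest, and Gas2l3 (19.8 and 16.2 CPM) and Cks2 (25.9 and 22.9 CPM) lowest. The genes with a Hist symbol, 67 features and mostly replication-dependent histones, summed to 554 CPM and 1319 CPM, although poly(A) capture recovers only part of their transcripts.

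Among 12 genes that drive entry into the cycle 7 were measured, and 2 were over 1.5-fold higher, E2f2 (4.50 and 16.7 CPM) and E2f1 (20.2 and 43.7 CPM), beside 7.25% of all genes measured. Skp2 (12.6 and 12.8 CPM) and Ccnd2 (127 and 140 CPM) stood at the low end. Of 14 inhibitors and pocket proteins 12 were measured, with 1 higher, 4 lower and a median of −0.30. Over all genes measured the shares were 7.25% (higher) and 7.8% (lower). The antiproliferative gene Btg2, also an immediate-early gene induced by stress, was at 1123 CPM with control and 157 CPM with LOY marrow. Btg2 was also lower with LOY marrow outside this class, at 5112 and 1549 CPM in neutrophil-like, 760 and 213 CPM in B cell-like, and 874 and 214.5 CPM in monocyte-like cells. The inhibitor Cdkn1c was at 20.0 and 5.50 CPM, whereas Cdkn1a, the p53 target p21, was at 433 and 389 CPM. Fzr1, the coactivator that destroys mitotic cyclins in G1, was the 1 gene of this list over 1.5-fold higher (18.3 and 35.1 CPM).

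To ask whether the genes stood together in the same cells, each cell was thinned to 1000 UMIs, which removes the depth gap between the libraries, and cells were called carriers of several genes of a phase when at least 3 of its genes had a UMI. Shallower macrophage-like cells were left out, so that 4293 control and 3255 LOY cells entered. Several G2/M genes were found in 94 control cells (2.19%, 1.77 to 2.67, exact Clopper-Pearson interval) and 245 LOY cells (7.53%, 6.64 to 8.49). Several S-phase genes were found in 38 control cells (0.885%, 0.627 to 1.21) and 93 LOY cells (2.86%, 2.31 to 3.49). Both together were found in 12 control cells (0.280%) and 21 LOY cells (0.645%). Without thinning the G2/M shares were 4.12% and 12.6% and the S-phase shares 11.5% and 17.3%. When cells under 1000 UMIs were removed before clustering, the LOY G2/M share of the class was 14.6%, and clusters with 1354 and 814 LOY cells then had no class name. In the main clustering, clusters 0, 8 and 11 had macrophage markers but no class name and were not in the class. At 1000 UMIs several G2/M genes were carried there by 1 of 80, 0 of 46 and 3 of 198 control cells. With LOY marrow they were carried by 0 of 131, 5 of 505 and 1 of 37 cells. The 2 values of 0 allow up to 6.52% and 2.29%. The LOY share of the class was 6.16% at resolution 0.5 and 6.50% with each library clustered on its own.

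A carrier of several G2/M genes had on average 8.02 G2/M UMIs per 1000 (7.46 to 8.61) in the control and 7.53 (7.19 to 7.88) with LOY marrow. Carriers of several S-phase genes held 3.71 S-phase UMIs (3.12 to 4.38) and 3.93 (3.53 to 4.35). The minimum of 3 genes that defines a carrier sets a floor to these values. The highest number of different G2/M genes in 1 thinned cell was 13 of 22 with control and 14 with LOY marrow, and that of S-phase genes 5 and 7 of 10. At least 6 different G2/M genes were seen in 41 control and 96 LOY cells, and at least 6 S-phase genes in 0 and 4. Carriers were deeper than other cells before thinning, with median totals of 9276 against 5584 UMIs with control and 4786 against 3047 with LOY marrow.

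At the cut of 3 genes per phase, most G2/M UMIs lay in carriers, and most S-phase UMIs did not. In macrophage-like cells thinned to 1000 UMIs, cells with several G2/M genes held 73.9% of all G2/M UMIs in the control and 82.4% with LOY marrow. Cells with several S-phase genes held 13.8% and 27.4% of S-phase UMIs. Carriers were chosen on these same genes, so the shares describe how the UMIs were spread and are no test. The cut was 3 of 22 G2/M genes but 3 of 10 S-phase genes, so the shares of the 2 phases are not on a like scale. Most carriers of either phase passed the G2/M cut, 94 of 120 control and 245 of 317 LOY cells. Each gene was then looked at by itself, as the share of its UMIs in cells that carried at least 3 other genes of either phase. Hmmr (96.2% and 88.2%), Ccna2 (92.9% and 88.4%), Kif11 (85.2% and 93.5%) and Cenpf (86.2% and 88.1%) were among the most concentrated, though each of these rests on 26 to 160 UMIs per library. Mki67, with 128 and 335 UMIs, had 63.3% and 72.5% there. Cenpa had the lowest share of the G2/M genes, 25% (17.7 to 33.6) and 50% (39.8 to 60.2).

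**Figure D2:**
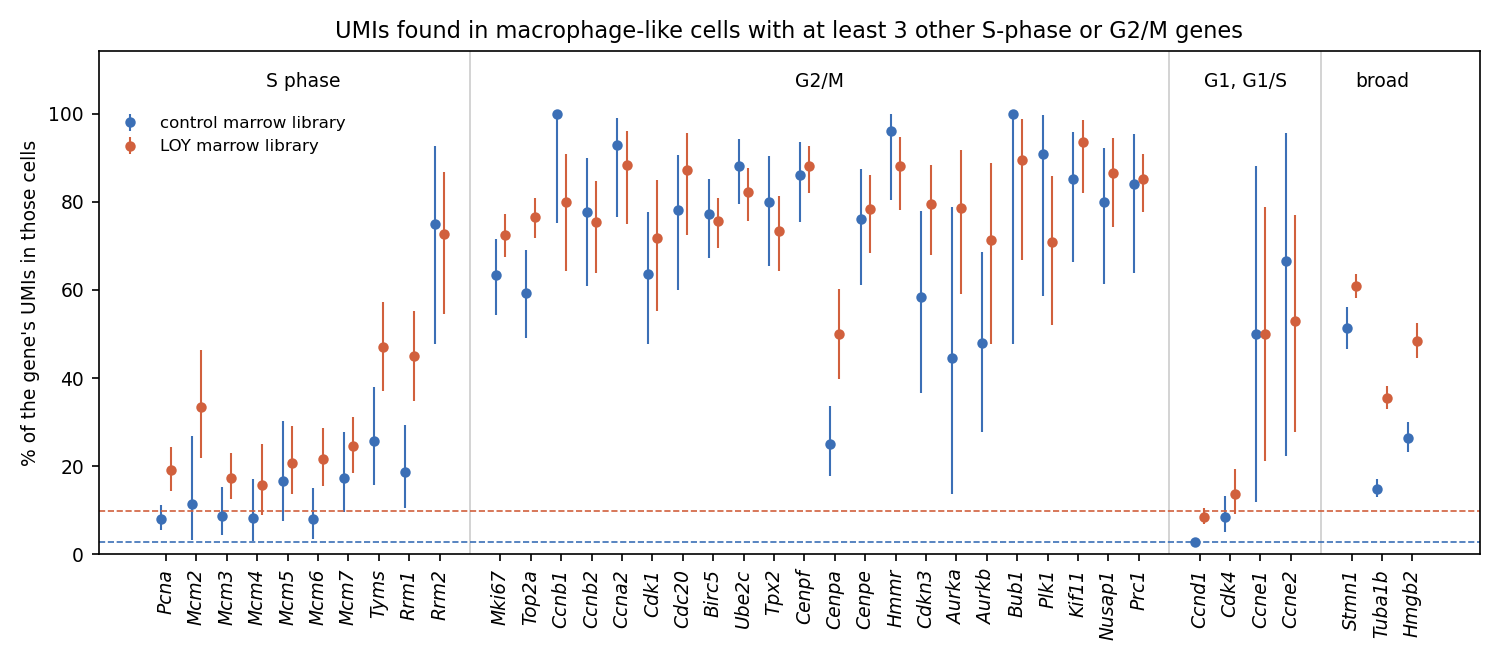
Share of each gene's UMIs found in macrophage-like cells that carry at least 3 other S-phase or G2/M genes, at 1000 UMIs per cell, with exact 95% Clopper-Pearson intervals; dashed lines give the share of cells with at least 3 genes, 2.80% (control, blue) and 9.74% (LOY, orange). Most G2/M genes lie between 60% and 95%, most S-phase genes under 50%, and Ccnd1 on the dashed lines. The phases are not on a like scale, since the cut of 3 genes was made on 22 G2/M but 10 S-phase genes.

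The Mcm genes ranged from 7.92% (Mcm6) to 17.3% (Mcm7) in the control and from 15.7% (Mcm4) to 33.3% (Mcm2) with LOY marrow. Pcna stood at 8.07% and 19.1%. Rrm2, the regulatory subunit of ribonucleotide reductase, was the exception among S-phase genes at 75% (of 16 UMIs) and 72.7% (of 33 UMIs), close to the G2/M genes, while its partner Rrm1 was at 18.7% and 44.9%. For Ccnd1 the share of UMIs, 2.81% and 8.52%, was about the share of the cells themselves, 2.80% and 9.74%. Stmn1 was at 51.5% and 61.0% and Tuba1b at 14.9% and 35.6%.

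Cells were then sorted by which phase they carried. In LOY macrophage-like cells with several S-phase genes only, 26 of 72 (36.1%) had a Ccnd1 UMI, against 34 of 224 (15.2%) with several G2/M genes only and 644 of 2938 (21.9%) with neither. The control library showed the same order, with 57.7% (15 of 26), 12.2% (10 of 82) and 24.3% (1013 of 4173). Hmgb2 ran the other way, seen in 60.3% of G2/M-only and 31.9% of S-only LOY cells, and in 78.0% and 15.4% of such control cells. Stmn1 was found in 88.4% of G2/M-only, 61.1% of S-only and 9.87% of other LOY cells.

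S-phase genes also differed between libraries in macrophage-like cells with no G2/M UMI after thinning to 1000 UMIs, 3973 control and 2721 LOY cells. This split does not use the S-phase counts, but such cells may hold G2/M UMIs at full depth. There the S-phase genes summed to 0.206 UMIs per cell (0.192 to 0.221) in the control and 0.306 (0.286 to 0.328) with LOY marrow. Mcm3 had 25.4 and 59.5 UMIs per 1000 cells (2.34-fold, 1.82 to 3.03), Mcm7 15.4 and 43.4 (2.83-fold, 2.06 to 3.91) and Mcm5 9.82 and 27.6 (2.81-fold, 1.88 to 4.25). Tyms (1.27-fold, 0.810 to 1.98), Rrm1 (1.35-fold, 0.902 to 2.02) and Rrm2 (1 and 4 UMIs), which were higher in the whole class, had intervals that span 1 here. Pcna had 86.8 and 65.1 (0.749-fold, 0.621 to 0.900). Stmn1 had 37.3 and 109 (2.92-fold, 2.39 to 3.58), so that its difference was not limited to cells with a G2/M UMI at this depth.

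Across the immune classes, dendritic cell-like cells had the highest share of G2/M carriers, with an interval that overlaps the macrophage-like one for LOY marrow, and neutrophil-like, B cell-like and monocyte-like cells had almost none. Conventional dendritic cell-like cells carried several G2/M genes in 14 of 78 control cells (17.9%, 10.2 to 28.3) and 7 of 63 LOY cells (11.1%, 4.59 to 21.6), intervals that overlap. Their G2/M sum was 1428 CPM with control and 955 CPM with LOY marrow. The 5 highest cells held 40.1% and 65% of those UMIs, and without the highest cell of each library the sums were 1308 and 796 CPM. T cell-like cells had 5 carriers among 242 control cells (2.07%) and 6 among 83 LOY cells (7.23%), with overlapping intervals. NK cell-like cells had 1 of 187 and 2 of 37. Their G2/M sums were 530 and 1344 CPM for T cell-like and 354 and 1732 CPM for NK cell-like cells, but the 5 highest cells held 80.7% and 75.9% of those UMIs in T cell-like and 79.4% and 96.5% in NK cell-like cells.

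**Figure D3:**
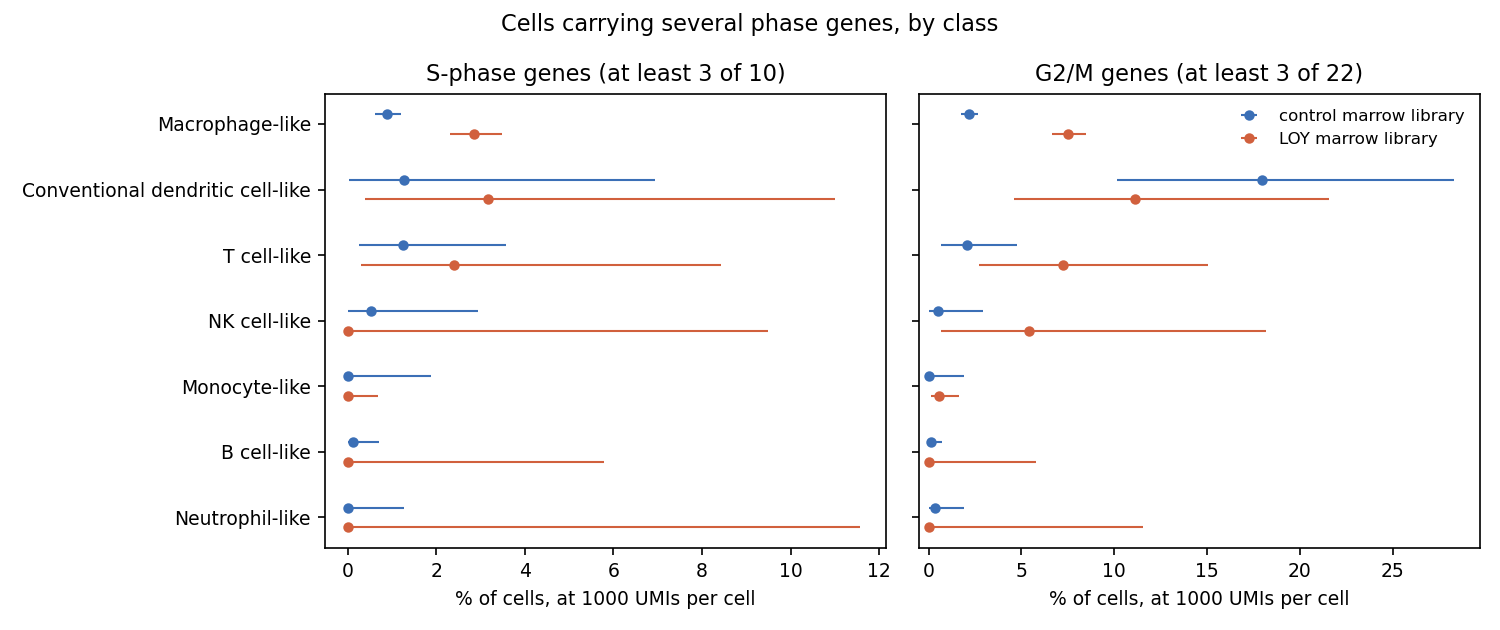
Share of cells with at least 3 S-phase genes (left) or at least 3 G2/M genes (right), at 1000 UMIs per cell, in 7 marker-defined classes of the control (blue) and LOY (orange) libraries, with exact 95% Clopper-Pearson intervals. The macrophage-like intervals of the libraries lie apart in both panels, and those of every other class overlap.

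Neutrophil-like cells serve as the background, since mature neutrophils do not divide. Several G2/M genes were seen in 1 of 286 control cells (0.350%) and 0 of 30 LOY cells, which allows up to 10.0% in so few cells. That 1 control cell held 187 of the 216 G2/M UMIs of its class, and the control sum was 303 CPM with it and 42.4 CPM without it, beside 68.0 CPM (9 UMIs) with LOY marrow. Hmgb2, which neutrophils express outside the cycle, was at 1237 and 506 CPM in them. B cell-like cells had 1 carrier of several G2/M genes among 796 control cells (0.126%) and 0 among 62 LOY cells, which allows up to 4.84%. Thinning left out 174 of 236 LOY B cell-like and 95 of 125 LOY neutrophil-like cells as too shallow, against 7 of 803 and 3 of 289 control cells. In the control library the macrophage-like G2/M interval (1.77 to 2.67%) lay above that of B cell-like cells (up to 0.698%) and overlapped that of neutrophil-like cells (up to 1.93%).

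Monocyte-like cells, the blood-derived precursors of recruited macrophages, had almost no carriers in either library. None of 194 control cells, which allows up to 1.55%, and 3 of 532 LOY cells (0.564%, 0.116 to 1.64) carried several G2/M genes, and none in either library carried several S-phase genes. Their G2/M sums were low, 49.3 CPM and 89.2 CPM, and 1 cell held 44 of the 146 LOY UMIs, without which the LOY sum was 62.7 CPM. Their S-phase sums were 133 and 207 CPM (1.55-fold, 1.30 to 1.86). Of 7 S-phase genes measured, 5 were over 1.5-fold higher and none lower, beside 8.29% and 14.9% of all genes measured in this class. The 5 were Mcm3 (11.8 and 39.7 CPM), Mcm4 (7.64 and 18.3 CPM), Mcm5 (8.34 and 20.2 CPM), Mcm6 (7.64 and 26.9 CPM) and Mcm7 (10.4 and 30.6 CPM), each from 11 to 65 UMIs per library. Pcna was again lower with LOY marrow (71.6 and 50.7 CPM), and Ccnd1 was higher here, at 119 and 284 CPM.

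In B cell-like cells the S-phase sum was lower with LOY marrow, 249 CPM (439 UMIs) against 166 CPM (36 UMIs), 0.668-fold (0.462 to 0.939). Of 8 S-phase genes measured none was over 1.5-fold higher and 2 were lower, Pcna (107 and 50.9 CPM) and Mcm2 (14.8 and 4.62 CPM, the latter 1 UMI), beside 9.66% and 22.1% of all genes measured in this class. Most of their G2/M UMIs were Cenpa (175 of 219 and 15 of 21), and Ccnd1 was nearly absent (4 and 0 UMIs). S-phase UMIs outnumbered G2/M UMIs in B cell-like (2.01 per G2/M UMI in the control, 1.71 with LOY marrow) and monocyte-like cells (2.70 and 2.32). The LOY B cell-like ratio rests on 36 and 21 UMIs and had an interval that spans 1 (0.974 to 3.09). G2/M UMIs outnumbered S-phase UMIs in dendritic cell-like (0.415 and 0.600) and T cell-like cells (0.739 and 0.476). In control T cell-like cells that order rests on 1 cell with 223 of 548 G2/M UMIs: without the highest cell of each phase the G2/M sum was 319 CPM and the S-phase sum 349 CPM.

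**Figure D4:**
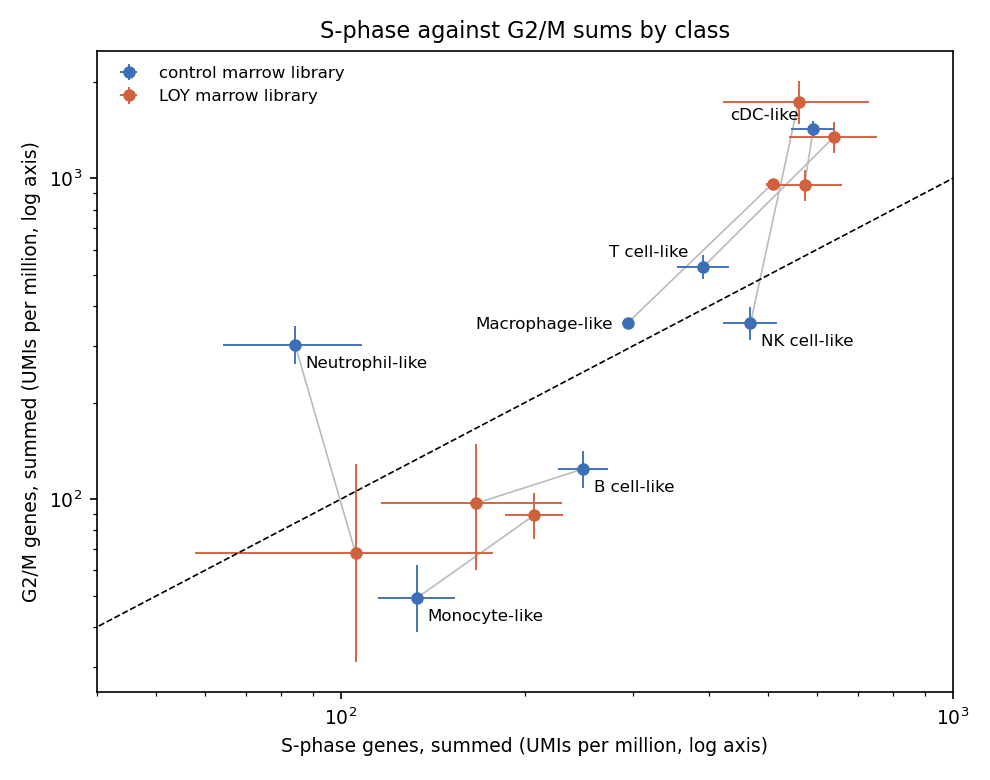
Summed S-phase genes (horizontal) against summed G2/M genes (vertical), both in CPM on log axes, for 7 classes in the control (blue) and LOY (orange) libraries joined by grey lines, with exact 95% Poisson intervals; the dashed line marks equal sums. Macrophage-like, T cell-like and dendritic cell-like cells lie above the line in both libraries, monocyte-like and B cell-like cells below it, and the control neutrophil-like and T cell-like points lie above it through 1 cell each. For LOY B cell-like cells the interval of the S-to-G2/M ratio spans 1.

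Pcna was lower with LOY marrow not only in macrophage-like, monocyte-like and B cell-like cells but also in dendritic cell-like (130 and 68.6 CPM, 0.530-fold, 0.324 to 0.830) and NK cell-like cells (145 and 61.1 CPM, 0.420-fold, 0.151 to 0.943). In T cell-like cells it was at 108 and 136 CPM (1.25-fold, 0.814 to 1.88) and in neutrophil-like cells at 46.3 and 37.8 CPM (0.815-fold, 0.249 to 2.10), with intervals that span 1. Mcm3 had intervals above 1 in macrophage-like, monocyte-like, T cell-like (45.4 and 118 CPM) and NK cell-like cells (42.6 and 122 CPM). In dendritic cell-like (66.8 and 95.5 CPM) and B cell-like (23.3 and 27.7 CPM) cells its intervals spanned 1.

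Macrophage states were set by subclustering 4580 control and 3884 LOY cells without 932 genes that followed the members across cells. These were the macrophage-like class together with clusters 7, 8 and 11, which had all macrophage markers but no class name. The added clusters held 12, 46 and 198 control and 3, 509 and 38 LOY cells. Of 16 subclusters 9 held over 90% of their cells in 1 library, and none had a member among its leading genes. In 3 named states each library had at least 100 cells. Lyve1 resident-like cells, by markers the long-lived perivascular type, carried several G2/M genes in 22 of 1087 control cells (2.02%, 1.27 to 3.05) and 39 of 842 LOY cells (4.63%, 3.31 to 6.28). Interferon-like cells did so in 10 of 633 (1.58%, 0.760 to 2.89) and 47 of 644 (7.30%, 5.41 to 9.59). Cells high in MHC class II genes did so in 23 of 518 (4.44%, 2.84 to 6.59) and 21 of 203 (10.3%, 6.52 to 15.4).

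**Figure D5:**
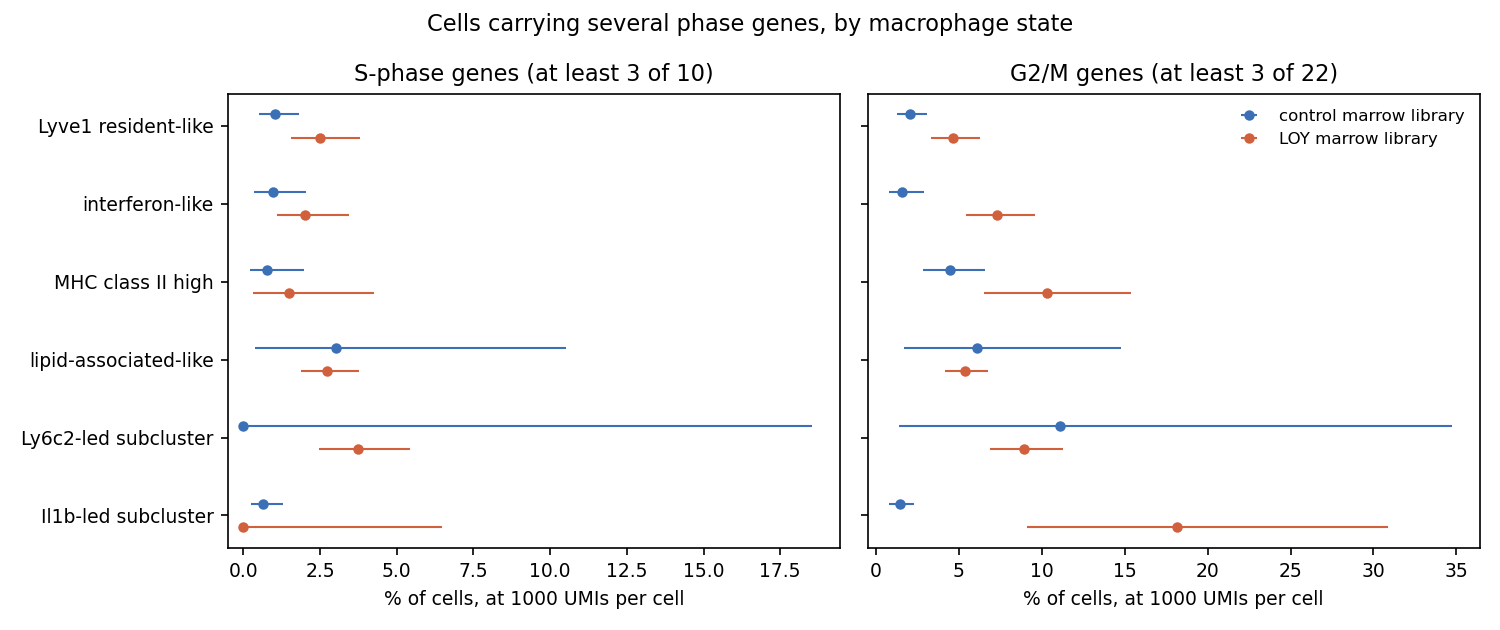
Share of cells with at least 3 S-phase genes (left) or at least 3 G2/M genes (right), at 1000 UMIs per cell, in 4 named macrophage states and 2 subclusters named by a leading gene, control (blue) and LOY (orange), with exact 95% Clopper-Pearson intervals. The G2/M intervals of the libraries lie apart in Lyve1 resident-like, interferon-like and Il1b-led cells and meet in the others.

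The Lyve1 resident-like state was made of subclusters led by Lyve1 (936 control and 103 LOY cells), Fcna (38 and 709) and Cxcl13 (116 and 36), so that most control and most LOY cells lay in different ones. Its G2/M sum was 354 and 670 CPM (1.89-fold, 1.79 to 2.00) and its S-phase sum 307 and 497 CPM (1.62-fold, 1.53 to 1.72). Within subclusters the S-phase ratio had an interval that spans 1 in the Lyve1-led one (289 and 341 CPM, 1.18-fold, 0.971 to 1.42) or the Cxcl13-led one (310 and 392 CPM, 1.26-fold, 0.914 to 1.72) and was below 1 in the Fcna-led one (673 and 515.5 CPM, 0.765-fold, 0.663 to 0.888). Shares of cells with several G2/M genes were, with control and LOY marrow, 16 of 935 (1.71%) and 2 of 101 (1.98%) in the Lyve1-led, 2 of 37 (5.41%) and 36 of 706 (5.10%) in the Fcna-led, and 4 of 115 (3.48%) and 1 of 35 (2.86%) in the Cxcl13-led subcluster, all with overlapping intervals. In the subcluster led by Lyve1 alone the G2/M sums were 358 and 580 CPM, and 331 and 342 CPM without the highest cell of each library. The G2/M sums were 275 and 688 CPM in the Fcna-led subcluster and 353 and 376 CPM in the Cxcl13-led one. Of 9 S-phase genes measured in the state 5 were over 1.5-fold higher and none lower, and of 19 G2/M genes 8 and none, beside 6.42% and 8.45% of all genes measured. Mki67 was at 49.5 and 124 CPM and Top2a at 44.5 and 110 CPM, while 6 G2/M genes had intervals that span 1, among them Ccnb2 (15.0 and 17.4 CPM), Nusap1 (12.8 and 15.2 CPM) and Cdk1 (15.5 and 12.2 CPM). Cenpa was lower with LOY marrow here, at 42.1 and 27.6 CPM (0.656-fold, 0.525 to 0.815).

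In interferon-like cells the G2/M sum was 227 and 740 CPM (3.26-fold, 3.01 to 3.52) and the S-phase sum 324 and 490 CPM (1.51-fold, 1.40 to 1.64). The S-to-G2/M ratio was accordingly 1.43 in the control and 0.663 with LOY marrow. Of 20 G2/M genes measured 17 were over 1.5-fold higher and none lower, and of 9 S-phase genes 5 and none, beside 7.61% and 11.1% of all genes measured. Mki67 was at 25.6 and 114 CPM (4.46-fold, 3.57 to 5.60) and Cdkn3, a phosphatase of Cdk kinases, at 4.23 and 25.4 CPM. Ccnd1 was at 674 and 421 CPM here, above the Lyve1 resident-like (316 and 367 CPM) and MHC class II high cells (262 and 228 CPM) of the same library. Most control cells (626 of 633) were in a subcluster led by Cxcl9 and most LOY cells (568 of 651) in one led by Ly6a. The S-phase ratio had an interval that spans 1 within each, with 320.5 and 337 CPM in the Cxcl9-led (1.05-fold, 0.853 to 1.28) and 613 and 514 CPM in the Ly6a-led subcluster (0.838-fold, 0.599 to 1.21). The G2/M sums within them were 226 and 641.5 CPM (2.84-fold, 2.43 to 3.31) and 350.5 and 755 CPM (2.15-fold, 1.39 to 3.54), the Ly6a-led control value from 7 cells, 1 of which held 17 of its 20 UMIs. In the Cxcl9-led subcluster the 5 highest LOY cells held 83.8% of the LOY G2/M UMIs. Without the highest cell of each library its sums were 200 and 460 CPM. Several G2/M genes were carried there by 10 of 626 control cells (1.60%, 0.769 to 2.92) and 5 of 83 LOY cells (6.02%, 1.99 to 13.5), with overlapping intervals.

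The MHC class II high state was a single subcluster in both libraries, with 536 control and 240 LOY cells. Its G2/M sum was 622 and 1406 CPM (2.26-fold, 2.06 to 2.48), and its S-phase sum 299 and 524 CPM (1.75-fold, 1.51 to 2.03). Mki67 was at 92.4 and 280 CPM, Top2a at 62.8 and 251 CPM, and Stmn1 at 244 and 996 CPM. Cenpe (26.3 and 26.9 CPM), Cenpa (55.4 and 47.6 CPM) and Aurkb (17.6 and 8.29 CPM) were among the genes with intervals that span 1.

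The other states and subclusters held few cells of 1 library. Lipid-associated-like cells, led by Spp1 and Gpnmb, numbered 66 with control and 1267 with LOY marrow, and carried several G2/M genes in 4 of 66 and 67 of 1253 (6.06% and 5.35%). Their pooled S-phase sum was lower with LOY marrow, at 591 and 408 CPM (0.690-fold, 0.614 to 0.779), opposite to the macrophage-like class, and 5 cells held 52.6% of the control UMIs. Most control cells (60 of 66) were in the Gpnmb-led subcluster and most LOY cells (1091 of 1267) in the Spp1-led one. The S-phase ratio was 0.83-fold (0.716 to 0.962) in the Gpnmb-led subcluster. In the Spp1-led one, with 6 control cells, it was 2.03-fold with an interval that spans 1 (0.931 to 5.55). A subcluster led by Ly6c2 held 18 control and 711 LOY cells. Its leading genes included 4 monocyte markers, Ly6c2, Chil3, Plac8 and Fn1. The 3 macrophage state markers it matched, Ly6c2, Chil3 and Plac8, were among these same genes. Of its LOY cells 8.90% carried several G2/M genes (6.89 to 11.3), beside 0.564% of the LOY monocyte-like cells. Of its control cells 2 of 18 did so (11.1%, 1.38 to 34.7). The G2/M sum of this subcluster was 1723 CPM with control and 1208 CPM with LOY marrow, but 1 cell held 225 of the 241 control UMIs. A subcluster led by Il1b held 1135 control and 57 LOY cells, with carriers of several G2/M genes at 16 of 1128 (1.42%) and 10 of 55 (18.2%, 9.08 to 30.9). The 5 highest LOY cells held 69.0% of its LOY G2/M UMIs. Several S-phase genes were carried there by 7 of 1128 control and 0 of 55 LOY cells, which allows up to 5.455%. Its S-phase sums were 249 and 241 CPM (0.969-fold, 0.683 to 1.335). Cells led by the iron exporter Slc40a1 had no carrier of either phase among 388 control cells, which allows up to 0.773%, and none among 23 LOY cells.

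Carriers of either phase numbered 151 control and 352 LOY cells among all kept cells. Macrophage-like cells made up 79.5% (72.1 to 85.6) of them in the control and 90.1% (86.4 to 93.0) with LOY marrow. Clusters 0, 8 and 11, which had macrophage markers but no class name, held 80, 46 and 198 control and 131, 509 and 38 LOY cells, with 4 and 13 carriers in all. Dendritic cell-like cells made up 9.93% and 2.56%, and T cell-like cells 4.64% and 2.27%. Lipid-associated-like cells and the Ly6c2-led subcluster supplied 27.3% and 23.0% of the LOY carriers and 3.31% and 1.32% of the control carriers. Lyve1 resident-like cells supplied 18.5% of the control and 15.9% of the LOY carriers. The states also hold cells of clusters 7, 8 and 11, so their carriers overlap with those counted for these clusters.

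Doublets can join genes of 2 cells in 1 barcode. Barcodes removed for a high doublet score carried several G2/M genes (without thinning) in 46 of 424 cases in the control (10.9%) and 51 of 240 with LOY marrow (21.3%), beside 3.59% and 9.08% of kept cells. Keeping them gave macrophage-like G2/M shares of 2.55% and 7.44% at 1000 UMIs. Mitochondrial UMIs made up a median of 3.19% and 2.17% in carriers and 3.09% and 1.92% in other macrophage-like cells.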

How the data were processed

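Cardiac CD45+ RFP+ cells were profiled as 2 single-cell 3′ libraries, 1 for each marrow, each from 3 mice pooled after the sort. The authors deposited unnormalized UMI counts for every gene in every barcode, made with Cell Ranger 5.0.0 on mm10, per the submitters' processing notes. The sources used here do not name the annotation; gene positions came from GENCODE M21. The lowest barcode totals were 504 and 500 UMIs, so barcodes had been filtered.

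Barcodes below 500 UMIs or 200 genes, or above 10% mitochondrial UMIs, were removed (Python 3.11.15, scanpy 1.11.5, numpy 2.4.6, scipy 1.17.1). Scrublet's automatic threshold marked 84 control and 0 LOY barcodes and so had not worked in the LOY library; in both libraries the highest scores were removed instead, at 0.8% per 1000 barcodes (424 and 240). Clusters (2000 variable genes, 30 components, 15 neighbours, Leiden resolution 1, igraph 0.11.9) left out genes of the cell cycle, histones, antigen receptors, globins, ribosomal proteins, mitochondria and the Y chromosome, and Xist. They were named from marker lists, so names can differ from the study's own. A cluster led by cell cycle genes remained among macrophages. Macrophage states were therefore reclustered without genes whose correlation with the members exceeded 0.1, a choice made after seeing that cluster.

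UMIs were summed per class and library, as CPM. A gene was measured at 10 CPM in either library, and called past 1.5-fold with 10 CPM added to both. Intervals are exact Poisson (sums), conditional (ratios) or Clopper-Pearson (shares), all 95%. Cells were thinned to 1000 UMIs for shares of carriers. A 0 is given with the limit of 3 counts. Thinning and ratios were tested on simulated data. All 39 members are named; other lists are given by counts and their 2 highest and 2 lowest measured genes, of which 1 is not reported here. The members and lists were chosen with earlier results of these data known. Cdkn1a, the Y-linked genes, the subclusters and the genes named for their share in carriers were named after their values were seen. Of the members, 32 had a RefSeq promoter window. Alternatives are given in the closing section; leaving out shared barcodes was added after seeing the data.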

Additional observations from a re-analysis of the deposited data

Results flagged for a closer look

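The LOY-to-control ratio of the summed S-phase genes was on opposite sides of 1 in different classes. It was 0.668 in B cell-like cells, against 1.73 in macrophage-like and 1.55 in monocyte-like cells. The difference between classes was not tested, since each class had 1 library per group, and the B cell-like value for LOY marrow rests on 36 UMIs.

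The ratio of the summed G2/M genes was 0.224 in neutrophil-like cells, against 2.72 in macrophage-like and 1.81 in monocyte-like cells. This difference was not tested either. One control neutrophil-like cell held 187 of the 216 G2/M UMIs, and without the highest cell of each library the sums were 42.4 and 53.2 CPM.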

How the results depend on the processing

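With 1 library per group leaving out a replicate and p-values do not apply. No paired analysis was possible because each group had 1 library and no test was made. LOY marrow gave the higher S-phase and G2/M shares in macrophage-like cells under 12 of 12 alternatives, the higher sums under 9 of 9, and the lower S-to-G2/M ratio under 8 of 8, and no value reversed. Sizes moved. Each pair below gives control and LOY.

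S-phase shares were 0.208% and 0.720% at 500 UMIs per cell, 2.78% and 9.56% at 2000, 11.5% and 17.3% without thinning, 3.03% and 8.54% with at least 2 genes, and 0.0233% and 0.277% with at least 5. G2/M shares under the same settings were 1.34% and 4.86%, 2.82% and 10.9%, 4.12% and 12.6%, 2.82% and 9.71%, and 1.28% and 4.64%. Requiring 1000 UMIs gave LOY shares of 4.17% (S) and 14.6% (G2/M). The LOY G2/M share was 6.16% at resolution 0.5 and 6.50% with each library clustered on its own.

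S-phase sums (CPM) were 352 and 620 over totals without mitochondrial and ribosomal-protein genes, 238 and 409.5 in thinned cells, 307 and 479 with all doublet scores kept, and 305 and 484 with cycle genes left in the clustering. The LOY S-phase sum was 638 with a minimum of 1000 UMIs, 467 with at most 5% mitochondrial UMIs, 449.9 at resolution 0.5 and 461 in separate clustering. G2/M sums were 424 and 1176 without mitochondrial and ribosomal-protein genes, 238 and 688 thinned, 406 and 927 with all doublet scores, 332 and 1593 with a minimum of 1000 UMIs, 328.5 and 853 with at most 5% mitochondrial UMIs, 341 and 792 at resolution 0.5, and 421 and 936 with cycle genes left in. The LOY G2/M sum was 830.5 in separate clustering, and the control sum 342 without shared barcodes.

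S-to-G2/M ratios were 1.002 and 0.596 thinned, 0.878 and 0.4005 with a minimum of 1000 UMIs, 0.897 and 0.548 with at most 5% mitochondrial UMIs, and 0.858 and 0.568 at resolution 0.5. The control ratio was 0.756 with all doublet scores and 0.725 with cycle genes left in, and the LOY ratio 0.5555 in separate clustering. The median log2 ratio of S-phase and G2/M genes was 0.98 and 1.56 with 1 CPM added, 0.37 and 0.39 with 50 CPM added, and 1.09 and 1.57 with a minimum of 1000 UMIs. That minimum left clusters with 1354 and 814 LOY cells without a class name. Beyond that, the cause of these moves was not tested. Depth limits the classes with few cells: 30 LOY neutrophil-like cells allow a share of up to 10.0%.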

Other observations

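Within each library, macrophage-like cells were also split by whether a UMI of the Y-linked genes Ddx3y, Eif2s3y, Kdm5d or Uty remained after thinning. In the control library several G2/M genes were carried by 7 of 461 cells with such a UMI (1.52%, 0.613 to 3.10) and by 87 of 3832 cells without one (2.27%, 1.82 to 2.79). In the LOY library the counts were 4 of 42 (9.52%, 2.66 to 22.6) and 241 of 3213 (7.50%, 6.61 to 8.47). The intervals overlap within both libraries, and a cell without a Y-linked UMI at this depth may still carry the chromosome.

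Genes with a Hist symbol summed to 261 and 325 CPM in monocyte-like cells, 708 and 892 CPM in B cell-like cells, and 974 and 672 CPM in neutrophil-like cells.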
